A study of Rattus norvegicus with 8 samples.

Results

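The regions of Pclo, Stxbp6 and Tmem132d, genes of the presynapse, of vesicle fusion and of the neuronal cell surface, are described here CpG by CpG in rat bladder tumors and normal bladders. They are 3 of the 246 regions in the study's list of hypermethylated promoter regions, and were extended to all CpGs up to 1 kb on either side. DNA methylation was measured by reduced representation bisulfite sequencing (RRBS), in which DNA cut with MspI and TaqaI is treated with bisulfite and sequenced, so that a methylated cytosine is read as C and an unmethylated cytosine as T. The 5 urothelial carcinomas (UCs) BT-1 to BT-5 came from F344/DuCrj rats given 200 ppm dimethylarsinic acid in drinking water for up to 104 weeks from 10 weeks of age. The 3 controls C1 to C3 were bladders of rats of the same strain and starting age given 0 ppm over the same time. The UCs were bladder tumors identified macroscopically, without histology, and neither the labels nor the methods tie each tumor to an animal. The labels call the control tissue bladder urothelium and the methods call it bladder tissue. Markers of the urothelium could not be checked in these methylation data, and expression was not analysed here. A level is the percentage of methylated calls among all calls on the CpGs named, and a difference between levels is given in percentage points. A level measured in bulk tissue cannot tell a smaller share of methylated cells from a smaller share of methylated copies in each cell.

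The paper describes the listed promoter regions as highly methylated in every UC when set against every control. In the calls summed here, the regions of Pclo and Tmem132d do not meet this, since BT-3 lay within the range of the controls. Only C1 in Pclo and C2 in Tmem132d, the latter on 44 calls, lay above BT-3. The paper's levels came from other software with its own coverage rule, so that the measures differ. The list was drawn up from these same samples by comparing UCs with controls. The levels of the 3 regions, and of the CpGs beside them, are therefore given as a description, and calls of tiles that hold or adjoin these CpGs restate the choice and support nothing. Each sample had 51434938 to 73836223 calls on 2526077 to 2821347 CpGs of at least 3 reads, with a median of 14 to 18 reads per CpG. In the 3 windows BT-1 was most like BT-2 and BT-4 most like BT-5, as described below. The group differences are also given without BT-3, which was low in Pclo and Tmem132d.

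Cytosines followed by guanine carry most DNA methylation in mammals. Promoters rich in CpGs are mostly unmethylated in normal tissue, and their methylation is a common alteration in tumors. Pclo encodes piccolo, a large scaffold protein of the presynaptic active zone, where synaptic vesicles dock and fuse. Stxbp6 encodes amisyn, which binds syntaxin through a SNARE motif and can restrain vesicle fusion. Tmem132d encodes a single-pass membrane protein found in neurons and oligodendrocytes.

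The 250 bases upstream of each RefSeq gene start in build GRCr8 are printed 5′ to 3′ on the gene's strand, with every CpG in capitals, because the levels below refer to these CpGs. They lie at chr4:21005112-21005361 on the minus strand for Pclo, chr6:67884339-67884588 on the minus strand for Stxbp6 and chr12:33906394-33906643 on the plus strand for Tmem132d.
Pclo: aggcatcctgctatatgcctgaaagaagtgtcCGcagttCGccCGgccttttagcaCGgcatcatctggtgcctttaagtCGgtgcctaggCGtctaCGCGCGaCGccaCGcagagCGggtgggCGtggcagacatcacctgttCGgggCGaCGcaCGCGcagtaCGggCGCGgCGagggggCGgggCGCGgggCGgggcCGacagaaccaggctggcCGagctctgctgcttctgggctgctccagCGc
Stxbp6: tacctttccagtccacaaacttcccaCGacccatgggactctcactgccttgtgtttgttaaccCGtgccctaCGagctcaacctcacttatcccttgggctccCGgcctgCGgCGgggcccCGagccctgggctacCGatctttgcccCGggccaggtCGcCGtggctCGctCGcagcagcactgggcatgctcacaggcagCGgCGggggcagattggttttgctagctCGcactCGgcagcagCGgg
Tmem132d: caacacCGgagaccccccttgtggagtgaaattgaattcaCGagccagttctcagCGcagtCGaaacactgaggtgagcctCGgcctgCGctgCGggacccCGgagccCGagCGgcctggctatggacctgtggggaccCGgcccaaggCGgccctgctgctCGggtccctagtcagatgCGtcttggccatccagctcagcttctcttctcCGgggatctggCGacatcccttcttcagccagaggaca

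The deposited calls use build rn6, of which no sequence was used here, and no coordinates were carried from one build to the other. The calls were placed on these sequences by the spacing of their CpGs alone. In the 300-base window that runs 50 bases past each gene start, all 8 deposited CpGs of Pclo, all 19 of Stxbp6 and all 21 of Tmem132d fell on a CG at a single placement, on the annotated strand. Placements were ranked by the CpGs on a CG, with CpGs off a CG counted against them. The next best placements held only 1, 2 and 3 deposited CpGs in the window, all on a CG. The 250 bases of Pclo hold 29 CpGs, but only 6 of them had calls in all 8 samples. Those of Stxbp6 hold 18 CpGs, with calls on 15, and those of Tmem132d hold 16, all with calls. The median over 33469 rat promoters of this length was 5 CpGs. The sequence of Pclo has 2 matches to GGGCGG or its complement CCGCCC, which 30.5% of these promoters contain, and the other two have none. CCGG, the site of MspI, occurs once in the sequence of Pclo, 2 times in that of Stxbp6 and 4 times in that of Tmem132d, and 46.2% of the promoters contain it. Bases are counted from 1 at the 5′ end of each printed sequence, and positions on chromosomes are those of rn6.

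The region of Pclo, on chromosome 4 from 17059197 to 17059254, lies upstream of the gene start and holds 3 CpGs. Its level was 9.48% in C1, 5.36% in C2 and 1.72% in C3. The UCs were at 40.2% in BT-1, 30.6% in BT-2, 28.6% in BT-4 and 34.8% in BT-5, whereas BT-3 was at 7.89%. Therefore 4 UCs lay above every control and BT-3 lay between C2 and C1. Controls averaged 5.52% ± 3.88 (SD, n = 3) and UCs 28.4% ± 12.3 (SD, n = 5), which differed by 22.9 points, or by 28.0 points without BT-3. Between 56 and 174 calls stood behind each sample's level. The 95% Wilson interval of BT-3 was 4.57% to 13.3% and that of C1 was 5.38% to 16.2%, so that a difference of BT-3 from this control was not detectable at this depth. These intervals cover counting error only and treat calls as independent, although several CpGs lie on the same read.

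The 3 CpGs of the Pclo region were unlike each other. At base 40 of the printed sequence (position 17059201), BT-1, BT-2, BT-4 and BT-5 were at 42.1%, 37.0%, 46.0% and 47.0%, and BT-3 was at 4.84%. Only 4 bp further on, at base 44 (position 17059197), the level was 27.3% in BT-1 and between 5.56% and 8% in the other UCs, close to the 7.14% of C2. At base 33 (position 17059208), the UCs were at 42.1%, 34.0%, 11.3%, 21.6% and 33.3% in the order of their numbers. The high level of the Pclo region thus came from 2 of its 3 CpGs. Base 44 lies in the only CCGG of the sequence. It had 11 to 28 reads in the UCs, with 11 in BT-1, against 38 to 66 at bases 40 and 33. The part of this in its level was not tested. A further CpG at position 17059255, directly upstream of the region, was at 31.0%, 48.6%, 10.5%, 42.9% and 52.5% in BT-1 to BT-5, but also at 18.8% in C1.

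Downstream of the Pclo region, 36 CpGs from 17058660 to 17059040 had calls in all samples, with 924 to 1482 calls per sample. The level of this flank was 4.67% in C1, 1.51% in C2 and 1.48% in C3. It was 17.8% in BT-1, 15.8% in BT-2, 24.4% in BT-4 and 20.6% in BT-5, but 2.21% in BT-3. BT-3 again lay within the range of the controls, here with 1084 calls in place of 152, and its interval was 1.49% to 3.27%. The mean difference was 13.6 points with BT-3 and 17.1 points without it. From 201 to 300 bp downstream of the region the mean of the UCs was 24.1% ± 13.3, and from 301 to 400 bp it was 9.83% ± 5.13 (SD, n = 5). The controls stayed at 3.94% ± 3.30 and 2.01% ± 1.49 (SD, n = 3) in these stretches. The flank was therefore methylated unevenly in the UCs, with single CpGs standing out. The largest difference of the Pclo window was at position 17058679, where BT-4 was at 70.4%, BT-5 at 51.6%, BT-1 at 26.9%, BT-2 at 29.4% and BT-3 at 4%. In contrast, at positions 17059022 and 17059040, near the gene start, BT-1, BT-2, BT-3 and BT-5 had no methylated call among 5 to 9 reads each, so that low levels were not detectable there.

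**Figure D1:**
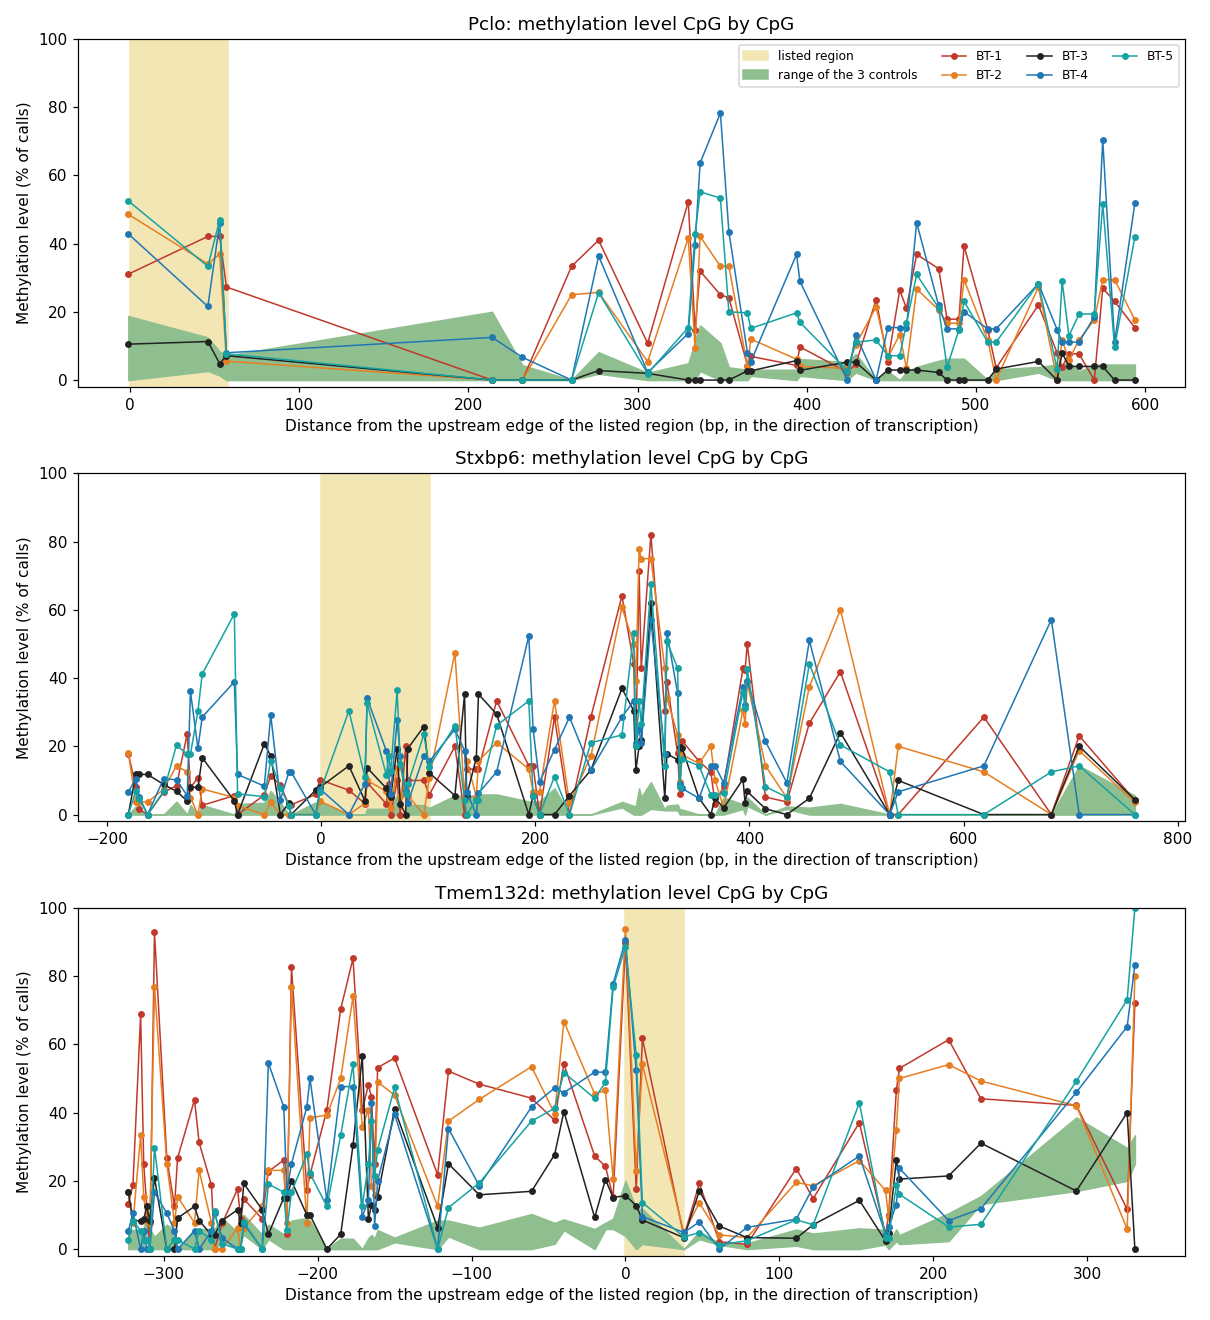
Methylation level in percent of calls (vertical axis) of each CpG with at least 3 reads in all 8 samples, against its distance in bp from the upstream edge of the listed region, in the direction of transcription (horizontal axis), for Pclo, Stxbp6 and Tmem132d. Lines are the 5 UCs, the green band is the range of the 3 controls and the yellow band is the listed region. BT-3 runs along the controls in Pclo, while in Stxbp6 all 5 UCs rise at the CpG with 57.1% to 82.1%, and in Tmem132d the first CpG of the region is at 88.6% to 93.9% in the UCs other than BT-3.

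The region of Tmem132d, on chromosome 12 from 31934194 to 31934231, also lies upstream of the gene start and holds 3 CpGs. Its level was 5.43% in C1, 13.6% in C2 and 1.61% in C3. BT-1, BT-2, BT-4 and BT-5 lay close together at 54.6%, 52.7%, 50.8% and 53.0%, and BT-3 was at 12.4%. The groups overlapped through BT-3 and C2, whose Wilson intervals of 8.0% to 18.8% and 6.40% to 26.7% covered each other, C2 having only 44 calls. Controls averaged 6.89% ± 6.14 (SD, n = 3) and UCs 44.7% ± 18.1 (SD, n = 5), which differed by 37.8 points, or by 45.9 points without BT-3. Among the 202 listed regions that had 3 or more CpGs, each read 3 or more times, in all samples, that of Tmem132d had the second largest shortfall of BT-3 against the mean of the other UCs, at -40.4 points, where the median was -10.03 points. That of Pclo was ranked 21 at -25.7 points, and that of Stxbp6 was ranked 160 at -1.16 points.

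The near equality of BT-1, BT-2, BT-4 and BT-5 over the Tmem132d region did not hold at its single CpGs. At base 102 of the printed sequence (position 31934194), these UCs were all high, at 89.7%, 93.9%, 90.5% and 88.6%, and BT-3 was at 15.7%, below the 20% of C2, which rested on 10 reads. At base 109 (position 31934201), BT-1 and BT-2 were at 17.6% and 22.9%, but BT-4 and BT-5 at 52.4% and 56.8%. At base 113 (position 31934205), 4 bp away, this order was turned around, with 61.8% and 54.2% in BT-1 and BT-2 and 9.52% and 13.6% in BT-4 and BT-5. These CpGs had 21 to 48 reads in the 4 UCs. The region's level in these UCs was thus the sum of different CpGs. A further CpG of the same kind, at base 94 (position 31934186), was at 15.2% and 20.5% in BT-1 and BT-2 and at 77.8% and 76.7% in BT-4 and BT-5.

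Higher levels in the UCs extended to both sides of the Tmem132d region. The upstream flank, with 43 CpGs in all samples and 974 to 1598 calls per sample, was at 4.14%, 2.79% and 3.17% in C1 to C3. It was at 34.0% in BT-1, 34.1% in BT-2, 15.9% in BT-3, 22.5% in BT-4 and 19.9% in BT-5, so that here BT-3 was clearly above the controls, with an interval of 14.0% to 18.0%. The downstream flank of 16 CpGs was at 8.15%, 4.09% and 6.44% in C1 to C3 and at 22.4%, 20.3%, 12.4%, 14.0% and 13.3% in BT-1 to BT-5. Every UC thus lay above every control in both flanks, although not in the region between them. In the downstream flank the Wilson intervals of BT-3, 10.2% to 15.0%, and of C1, 6.42% to 10.3%, overlapped slightly. Within 100 bp downstream of the region, which includes bases 140 to 224 of the printed sequence, the UC mean fell back to 7.45% ± 2.32 against 2.02% ± 0.862 in the controls (SD, n = 5 and n = 3). A CpG at base 62 (position 31934154) was at 54.3%, 66.7%, 40.3%, 45.8% and 51.7% in BT-1 to BT-5 and at 5.56% to 8.70% in the controls. The highest level of BT-3 in the Tmem132d window was 56.5%, on 23 reads at position 31934023, where the other UCs were at 40.7%, 35.7%, 9.52% and 12.5% and no control had a methylated call. Farther downstream, in the last 3 CpGs of the window (positions 31934487 to 31934525), the controls were themselves partly methylated, at 27.1% ± 8.70 (SD, n = 3), and the UCs at 41.8% ± 15.6 (SD, n = 5) overlapped them. At position 31934520 among these, the controls were at 29.6%, 20% and 28.3%, BT-1 and BT-2 lay below them at 11.6% and 5.88%, and BT-3, BT-4 and BT-5 lay above them at 40%, 65.2% and 73.1%.

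The region of Stxbp6, on chromosome 6 from 65319391 to 65319492, lies on the transcribed side of the gene start, past the printed sequence, and holds 12 CpGs. Its level was 1.29% in C1, 0% in C2 and 0.372% in C3. The 0 of 235 calls in C2 allow a level of up to 1.28%. It was 6.93% in BT-1, 6.20% in BT-2, 10.3% in BT-3, 15.0% in BT-4 and 17.6% in BT-5. Every UC lay above every control, and here BT-3 stood between the pairs of UCs and was not the lowest. Controls averaged 0.555% ± 0.666 (SD, n = 3) and UCs 11.2% ± 4.98 (SD, n = 5), which differed by 10.6 points, or by 10.9 points without BT-3. All 12 CpGs were at 5.56% or less in the controls, and none exceeded 36.4% in a UC.

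Beside the Stxbp6 region the levels were unequal on its 2 sides. The upstream flank, with 19 CpGs that include those of the printed sequence from base 105 on, was at 1.66%, 0.360% and 0.412% in C1 to C3 and at 7.05%, 4.91%, 8.14%, 13.8% and 12.5% in BT-1 to BT-5. The downstream flank was at 2.49%, 1.31% and 1.67% in the controls and at 27.0%, 27.3%, 14.6%, 23.4% and 22.2% in BT-1 to BT-5. In both flanks every UC was above every control, but the order of the UCs changed. BT-4 and BT-5 were the highest in the region and in the upstream flank, and BT-1 and BT-2 were the highest in the downstream flank, where BT-3 was the lowest. From 101 to 200 bp downstream the means were 42.0% in BT-1 and BT-2 and 22.7% in BT-4 and BT-5. The listed region itself was thus not the most methylated stretch of the Stxbp6 window in the UCs.

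The CpG of Stxbp6 with the largest difference lay in the downstream flank at position 65319184. It was at 9.52%, 6.12% and 1.69% in C1 to C3 and at 82.1%, 75%, 62%, 57.1% and 67.6% in BT-1 to BT-5, a difference of 63.0 points. BT-3 was as high as BT-4 there, in contrast to its levels in Pclo. In the next 16 bp, at positions 65319195 and 65319200, BT-3 was at 20% and 30.4%. On the upstream side, base 204 of the printed sequence (position 65319573) was at 5.56%, 5% and 4% in BT-1 to BT-3 and at 38.9% and 58.8% in BT-4 and BT-5, with no methylated call in the controls.

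**Figure D2:**
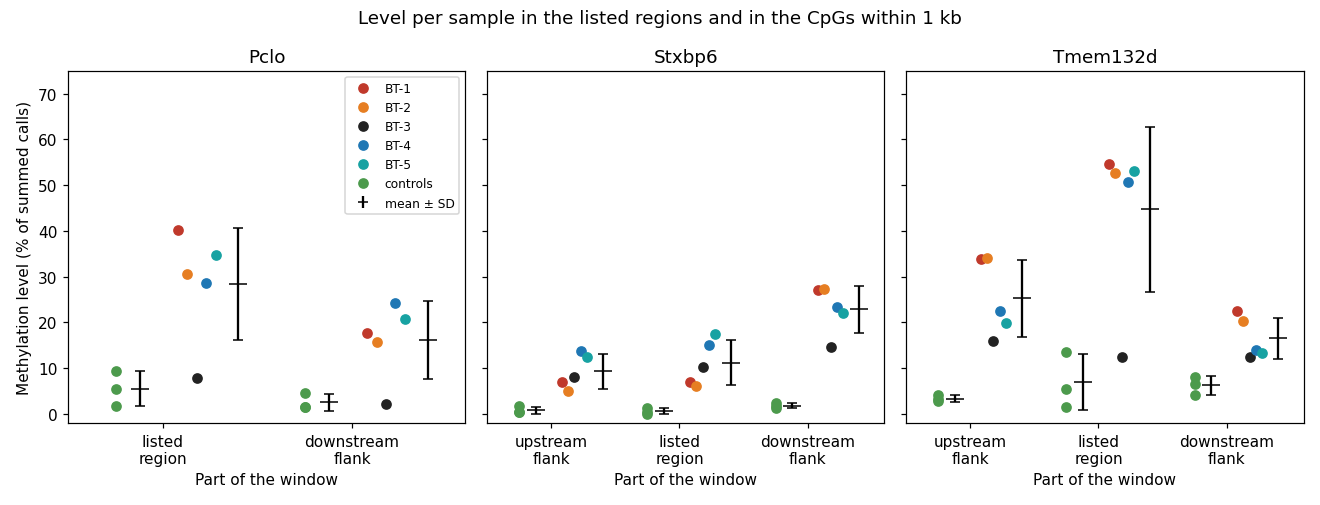
Methylation level in percent of summed calls (vertical axis) of each sample in the listed region and in the CpGs within 1 kb upstream and downstream of it (horizontal axis), for Pclo, Stxbp6 and Tmem132d. The upstream flank of Pclo is not drawn because fewer than 3 of its CpGs had calls in every sample. Green points are the 3 controls, colored points the 5 UCs, and black bars the mean ± SD. BT-3 lies among the controls in both parts of Pclo and in the region of Tmem132d, but above every control in all parts of Stxbp6 and in both flanks of Tmem132d.

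Counted over single CpGs with at least 3 reads in all 8 samples, every UC was above every control at 6 of 40 CpGs of the Pclo window, 37 of 71 of Stxbp6 and 28 of 62 of Tmem132d. Over the genome this held for 8.05% of 2052737 such CpGs. With BT-3 left aside, the counts were 25 of 40, 43 of 71 and 34 of 62, against 12.4% over the genome. The list was chosen on this contrast, and the CpGs of a window share reads, so that these counts only describe the windows. BT-3 was the only UC not above the controls at 19 CpGs of Pclo and at 6 CpGs each of Stxbp6 and Tmem132d. Pclo and Tmem132d were singled out with the low value of BT-3 known, so that nothing is read from this contrast.

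BT-3 was also compared with the other UCs where the UC mean exceeded the control mean by over 10 points. It was the lowest UC at 19 of 24 such CpGs of Pclo (79.2%), at 23 of 41 of Tmem132d (56.1%) and at 18 of 40 of Stxbp6 (45%). Over the genome it was the lowest at 46.8% of 354424 such CpGs. The share in Stxbp6 was near this background. Pclo and Tmem132d were singled out with the low value of BT-3 known, so that nothing is read from these shares.

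The profiles of the UCs along each window fell into the same pairs in all 3 genes. Over the 40 CpGs of Pclo, Pearson's r across CpGs was 0.80 between BT-1 and BT-2 and 0.86 between BT-4 and BT-5, and 0.36 to 0.65 between the pairs. Over the 71 CpGs of Stxbp6 it was 0.88 and 0.72 within the pairs and 0.42 to 0.59 between them, and over the 62 CpGs of Tmem132d it was 0.90 and 0.92 within and 0.38 to 0.59 between them. The r of BT-3 with the other UCs was -0.01 to 0.24 in Pclo, 0.20 to 0.52 in Stxbp6 and 0.25 to 0.35 in Tmem132d. In Stxbp6, BT-3 was as like BT-1 (0.52) as the UCs of different pairs were like each other. CpGs of a window share reads and base composition, so that these values describe likeness only.

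The pairs differed in both directions in each of the 3 windows. The mean of BT-1 and BT-2 exceeded that of BT-4 and BT-5 by over 20 points at 18 of 62 CpGs of Tmem132d, at 5 of 71 of Stxbp6 and at 2 of 40 of Pclo, against 11.1% of CpGs over the genome. The opposite held at 4, 7 and 6 CpGs of these windows, against 6.25% over the genome. The largest such difference was at position 31933888 of Tmem132d, with 92.9% and 76.9% in BT-1 and BT-2 and 16.7% and 29.7% in BT-4 and BT-5.

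Neighbouring CpGs could be ordered oppositely in the pairs, as at bases 109 and 113 of Tmem132d. Among 99 pairs of neighbouring CpGs up to 10 bp apart in the 3 windows, with at least 10 reads in BT-1, BT-2, BT-4 and BT-5, 2 were ordered oppositely by over 20 points in every one of these UCs, where 0.100% of 460880 such pairs over the genome were. The other was in Pclo, where position 17058920 was at 14.8% and 9.38% in BT-1 and BT-2 and at 39.5% and 42.9% in BT-4 and BT-5, and position 17058924 was at 52.3%, 41.7%, 13.6% and 15.4%. This count was made after the values of Tmem132d had been seen. The effective count, which corrects for base variants by the reads of the opposite strand, lowered the number of calls at a CpG by at most 5.53% in any of the 3 windows. The number of opposite-strand reads at these CpGs was not examined, so that base variants were not tested.

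**Figure D3:**
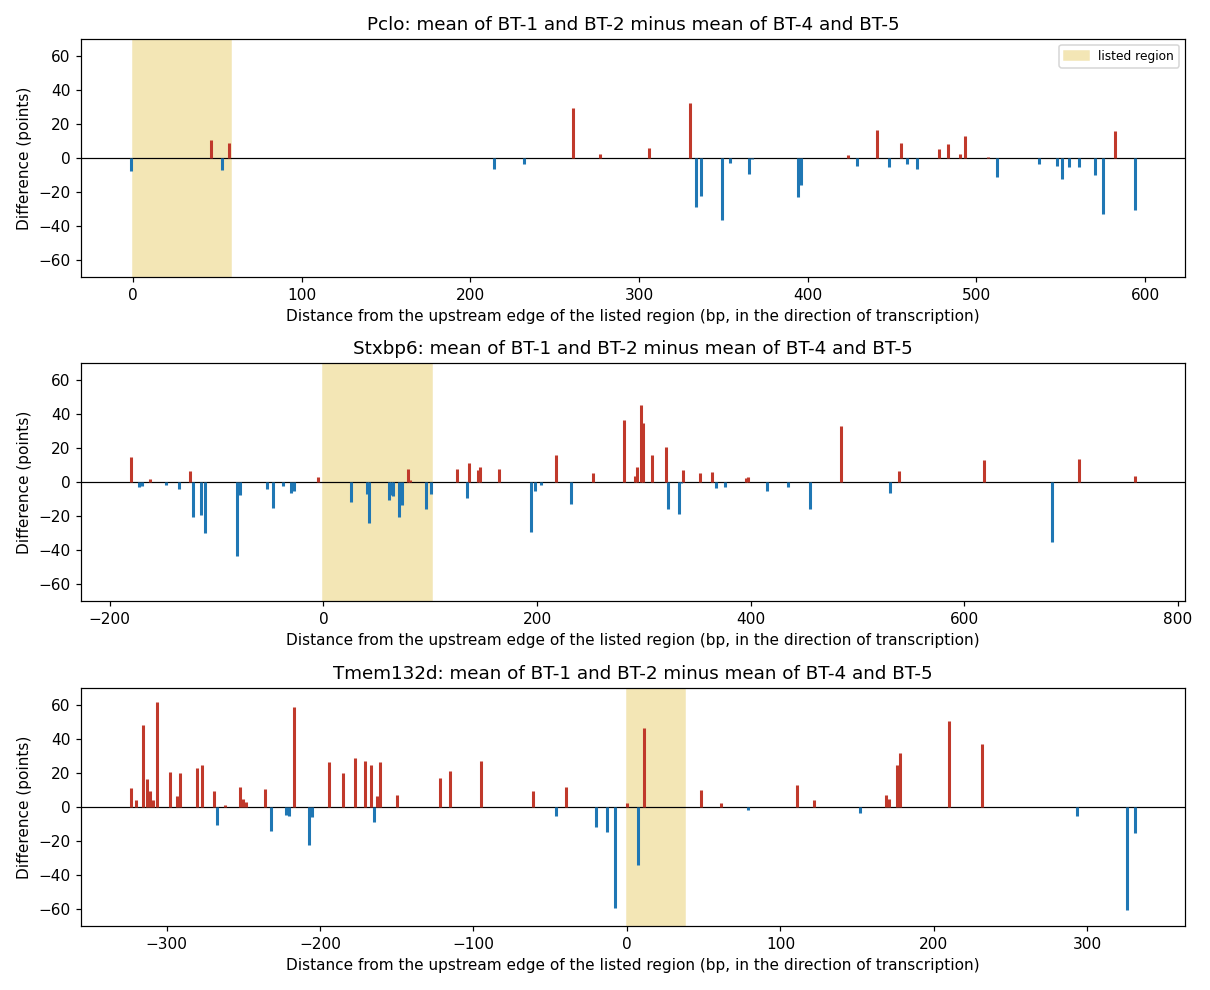
Mean level of BT-1 and BT-2 minus mean level of BT-4 and BT-5 in percentage points (vertical axis) at each CpG with at least 3 reads in all 8 samples, against distance in bp from the upstream edge of the listed region in the direction of transcription (horizontal axis), for Pclo, Stxbp6 and Tmem132d. Red lines are CpGs higher in BT-1 and BT-2, blue lines CpGs higher in BT-4 and BT-5, and the yellow band is the listed region. In Tmem132d, 18 CpGs exceed 20 points upward and 4 downward, some of them side by side.

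Regions of fixed size across the genome put these windows in context. A tile of 200 bp was called when the groups differed by over 10 points and the adjusted p was under 0.05 in a quasi-binomial model with dispersions moderated by limma (Benjamini-Hochberg adjustment). Of 258144 tiles, 9.29% were called higher in UCs and 7.15% lower. The 3 windows held 13 tested tiles, of which 8 were called higher and 0 lower. Of these 13, 6 hold CpGs of the listed regions and the other 7 adjoin them, and the regions were chosen on the same contrast, so that nothing is read from these calls. Among the 7 tiles without CpGs of the listed regions, 4 were higher, 2 of them beside Pclo, 1 beside Stxbp6 and 1 beside Tmem132d. Without BT-3, 9 of the 13 tiles were higher. The count was 5 without C1, 4 without C2, 4 without C3, 5 without BT-1, 6 without BT-2, 5 without BT-4, 6 without BT-5, and 4 with BT-1 merged with BT-2 and BT-4 with BT-5. No tile was called with the replicate number as a block.

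The number of reads at the 3 loci was not used to choose them, and was compared between the groups. Within 1 kb of the region, the share of a sample's calls was 0.856 ± 0.113 of the control mean in the UCs for Pclo, 0.879 ± 0.0889 for Stxbp6 and 1.06 ± 0.115 for Tmem132d (SD, n = 5). The SD of the controls was 0.0318, 0.0346 and 0.0914 (n = 3). None of these differences had a p under 0.05 in exact permutation tests over the 56 divisions into 3 and 5 (two-sided, p = 0.0714, 0.107 and 0.464, and 0.214, 0.214 and 0.557 after Benjamini-Hochberg adjustment over 6 comparisons, where 0.0179 is the smallest p possible). The tests treat the 5 UCs as independent. With BT-1 merged with BT-2 and BT-4 with BT-5, which leaves fewer divisions, the unadjusted p of this test was 0.2, 0.3 and 0.5. All 5 UCs were below the control mean in Pclo, with BT-2 lowest at 0.687. Within 1 kb BT-3 had the highest coverage of the UCs at all 3 loci, at 0.995 in Pclo, 1.03 in Stxbp6 and 1.22 in Tmem132d, where the next highest UC was at 0.903, 0.896 and 1.11. Within 1 Mb the ratios were 0.943 ± 0.0425 for Pclo, 1.03 ± 0.0768 for Stxbp6 and 1.08 ± 0.0824 for Tmem132d (exact permutation test, two-sided, p = 0.107, 0.679 and 0.179, adjusted 0.214, 0.679 and 0.268). Within 1 Mb BT-3 was at 0.983, 1.10 and 1.15, between other UCs in each case. The part of these shifts in coverage in the levels, those of BT-3 included, was not tested.

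**Figure D4:**
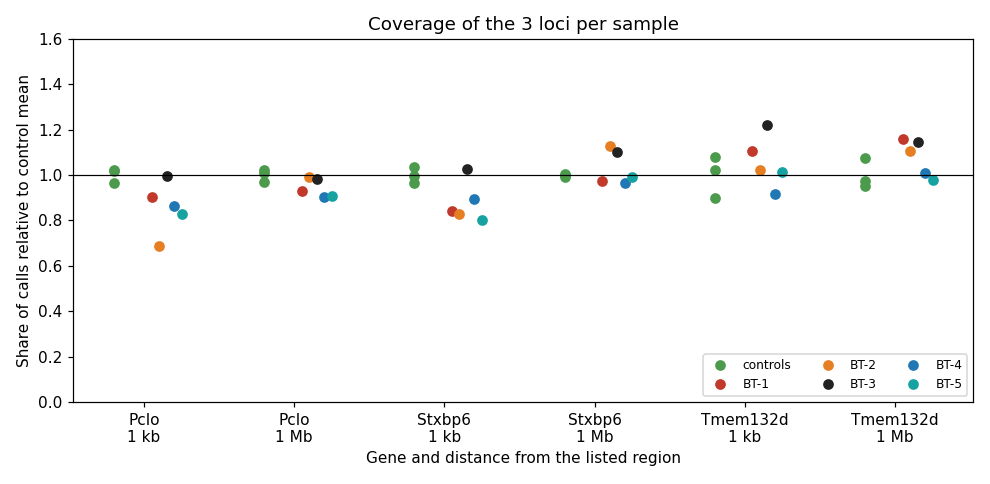
Share of a sample's calls that lie within 1 kb or 1 Mb of the listed region, relative to the mean of the 3 controls (vertical axis), for Pclo, Stxbp6 and Tmem132d (horizontal axis). Green points are the 3 controls and colored points the 5 UCs. Samples lie on both sides of 1, with BT-2 lowest at 0.687 within 1 kb of Pclo and BT-3 highest at 1.22 within 1 kb of Tmem132d.

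The listed regions most like the members were found by the root mean square difference of their levels over the 8 samples. Those nearest to Pclo were the regions of the homeobox gene Hoxc10 at 3.49 points, the secreted Wnt antagonist Sfrp5 at 4.06 points and the collagen lysyl hydroxylase Plod2 at 5.17 points. In these, the level of BT-3 minus the mean of the other UCs was -20.3, -27.4 and -13.5 points, against -25.7 points in Pclo. Nearest to Stxbp6 were those of Nxph1, which encodes a ligand of neurexins, at 1.83 points, the G protein-coupled receptor gene Gpr12 at 2.22 points and the dynamin gene Dnm3 at 2.57 points. Nearest to Tmem132d were those of Ranbp17 at 5.46 points, Actl6b, a subunit of neuronal chromatin remodeling complexes, at 5.55 points and Trank1 at 6.80 points. In these, the level of BT-3 minus the mean of the other UCs was also low, at -33.3, -34.7 and -35.6 points, against -40.4 points in Tmem132d. It was -5.30 points in Nxph1, 1.27 in Gpr12 and -5.55 in Dnm3, against -1.16 points in Stxbp6. Likeness was measured on these same levels, so that such shared values follow in part from the choice.

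Of 10 other genes of the list with presynaptic or vesicle roles (Cacna1b, Cacna2d1, Clvs2, Cpne9, Dnm3, Gad2, Ptprn, Ptprn2, Slc32a1 and Slc6a3), 8 had regions with calls enough in all samples. In all 8 of them the UCs lay above the controls without overlap, as in 188 of the 202 such regions of the list, which was chosen on these samples and is no independent evidence of the direction. The differences ranged from 11.4 points for Ptprn, a protein of dense-core vesicles, to 45.4 points for its relative Ptprn2, with a median of 15.7 points against 17.6 points over the 202. BT-3 was the lowest UC in 6 of the 8, as in Tmem132d and Pclo, and in 128 of the 202.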

How the data were processed

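RRBS of 5 UCs and 3 control bladders was analysed from the deposited calls. Per the methods, the authors removed adapters and library bases, mapped reads uniquely with RRBSMAP and used random barcodes to discard PCR duplicates. The deposited counts are C calls and C and T calls per CpG, with both strands combined. The authors' caller also gave an effective count, an expected count corrected for base variants, and a ratio deposited as a fraction, which was not used. Per the labels, the processing used rn6 and HOMER. Every CpG listed had at least 3 reads.

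C calls and all calls were summed per sample over each listed region, its flanks within 1 kb and 200-bp tiles, which needed 3 or more CpGs, each read 3 or more times, in all samples. Tiles were tested with a quasi-binomial model (UC against control, no covariate), its dispersion moderated with limma 3.58.1 in R 4.3.3, with Benjamini-Hochberg adjustment. On simulated calls for this comparison, with 400 of 258144 tiles changed by 30 points, it recovered 49.8% with little and 1% with more added variation between samples, with 0 false calls. Of the unchanged tiles, 6.37% with little and 8.04% with more added variation had an unadjusted p under 0.05 in this model. Many more tiles, 42427, were called in the data, so that the 0 false calls do not carry over to them. Coverage was compared by exact permutation tests. Python 3.11.15 with numpy 2.4.6, pandas 2.3.3, scipy 1.17.1 and matplotlib 3.10.9 was used.

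The members and gene lists were chosen with earlier results of these data known. All 3 members are named with their values, as are the 3 listed regions nearest to each, and the presynaptic genes of the list by count with the lowest and highest. Single CpGs were named after their values were seen. Promoters of related genes outside the list were not analysed here, since no gene starts of rn6 were used. Alternatives are given at the end.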

Additional observations from a re-analysis of the deposited data

Results flagged for a closer look

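Of 17 levels and coverages of the 3 loci, many of which overlap, 2 had a UC whose gap to the nearest of the other 4 exceeded Dixon's critical value, which chance exceeds in about 1 in 20 groups. Both concerned BT-3. In the region of Tmem132d, BT-3 was at 12.4% and the other UCs were at 50.8% to 54.6%. This gene was chosen with the low level of BT-3 in it known, so that its gap is a description and not a test. In the flanks of Stxbp6, BT-3 was at 12.7% and the other UCs were at 18.9% to 20.04%, although in the region of Stxbp6 itself it lay among them. These flanks pool 2 sides on which the pairs of UCs were ordered oppositely. BT-3 was at 8.14% upstream, between other UCs, and lowest at 14.6% downstream. On neither side alone did its gap exceed the critical value.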

How the results depend on the processing

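The differences between UCs and controls in the regions and flanks of Pclo, Stxbp6 and Tmem132d kept their direction, and moved by less than 1 SD of the UCs, under all alternatives run. Leaving out 1 sample gave 19.96 to 28.0 points in the region and 12.2 to 17.7 in the flanks of Pclo, 9.06 to 11.9 and 16.3 to 18.1 for Stxbp6, and 35.2 to 45.9 and 15.1 to 18.5 for Tmem132d. Merging BT-1 with BT-2 and BT-4 with BT-5 gave 19.4 and 11.8 points for Pclo. It gave 10.5 and 15.8 for Stxbp6, and 32.5 and 15.6 for Tmem132d. The number of tiles called across the genome, 42427, became 76179 with at least 10 calls per tile in place of 3 CpGs, 24593 with at least 10 reads per CpG and 21581 with BT-1 and BT-2 merged and BT-4 and BT-5 merged. With 1 sample left out it was 21059 (without C3) to 55911 (without BT-3), with 23945 without C1 and 22990 without C2. By limma on M values it was 34863 and by an F-test on percentages 30014. With the replicate number as a block, which leaves 3 pairs, the quasi-binomial model with limma called 0 tiles, while 48378 tiles had an unadjusted p under 0.05 with over 10 points. The controls and UCs share only a number: the correlation of deviations of same-numbered samples was 0.01, -0.01 and 0.04. As a share of its chromosome, the coverage ratio of Pclo within 1 Mb was 0.934 (exact permutation test, two-sided, unadjusted p = 0.0357), and that of Tmem132d within 1 kb was 0.985 (p = 0.857), turned from 1.06. The cause was not tested. No other coverage ratio changed its direction or its side of 0.05. A region of 3 CpGs rests on as few as 44 calls, so that differences of a few points in single samples of Pclo and Tmem132d are beyond this depth.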
